A study of Mus musculus with 6 samples.

Results

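The ephrin, semaphorin, Slit and netrin systems are the classical families of guidance cues, and their 70 ligand and receptor genes were compared between wild-type cells and cells lacking functional Smad2 and Smad3. The genes were taken by symbol from the deposited expression table: every ephrin (Efna, Efnb), Eph receptor (Epha, Ephb), semaphorin of classes 3 to 7, plexin, Slit, Robo, netrin (Ntn) and Unc5 gene, together with Nrp1, Nrp2, Dcc and Neo1. They made up 70 of the 24288 gene symbols in the table, of which 35 code for ligands and 35 for receptors. RNA was sequenced from day 2 epiblast-like cells (EpiLCs), which are embryonic stem cells (ESCs) carried towards a state like that of the early post-implantation epiblast. The WT group was 3 libraries of the CCE line, and the DKO group was 3 libraries of KT15.1F6, a single clone made from Smad2 tm1Rob/tm1Rob ESCs by deleting exon 1 of Smad3 with the Cas9 nickase. All cells were of strain 129/Sv//Ev. ESCs of both groups had been kept in N2B27 with PD0325091, CHIR99021 and LIF, and all were then held for 48 h on fibronectin in N2B27 with 12 ng/ml Fgf2, 20 ng/ml activin A and 1% KSR, so both groups received the same activin. The libraries of a genotype came from independent differentiations. As each genotype was 1 line, the knockout and other differences between the lines cannot be told apart.

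Guidance cues steer growing axons and migrating cells by attraction or repulsion, and many of them also act in epithelia, vessels and early embryos. Ephrins are held at the cell surface, ephrin-A by a lipid anchor and ephrin-B by a membrane span, and they bind Eph receptor tyrosine kinases on a neighbouring cell, with signals passing in both directions. Class 3 semaphorins are secreted and mostly bind a neuropilin that pairs with an A-type plexin, whereas semaphorins of the other classes studied here are attached to the membrane and bind plexins directly. Slits are large secreted proteins read by Robo receptors. Netrins are secreted relatives of laminin that are read by Dcc, Neo1 (neogenin) and the Unc5 receptors. Smad2 and Smad3 carry the signal of activin and Nodal from the receptor into the nucleus.

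The libraries held 57644143 to 63046034 reads counted over gene bodies, at 1 entry per gene. Smad3 had 799, 846 and 873 normalized reads in the WT libraries and 21.5, 30.5 and 18.7 in the DKO libraries (log2 fold change -5.12 ± 0.13 (SE), adjusted p = 7.91e-22). Smad2, which carries the targeted tm1Rob allele in DKO, had a mean of 4520.3 ± 86.3 (SD, n = 3) in WT and 5062 ± 109 in DKO and was not called (log2 fold change 0.16 ± 0.03 (SE), adjusted p = 2.27e-05), and a sum over its gene body cannot check for the loss of single exons. All 6 primed epiblast markers were expressed in every library, and 3 of them (Fgf5, Pou3f1 and Sox3) fell, with a summed level in DKO of 0.880 times that in WT. Of the 10 naive pluripotency markers 8 rose, and the sum was 1.68 times the WT level. Markers of other lineages are given after the guidance genes.

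A gene was called changed when the limma test gave an adjusted p under 0.05 over all 17038 genes tested and its fold change was over 1.5. All 70 guidance genes passed the filter on low counts and were tested, with 10 to 10793 reads per gene and library. Of these, 27 were called, 17 lower and 10 higher in DKO. Among all genes tested 15.4% were called, 8.04% lower and 7.35% higher, against 38.6%, 24.3% and 14.3% of the guidance genes. The median log2 fold change (DKO over WT throughout) was -0.05 over the guidance genes and 0.000122 over all genes. The 3 values of each group did not overlap for 45 of the 70 genes, which is near the 59.0% seen over all genes, and all 27 called genes were among the 45. Ligands and receptors were called about equally often, with 14 ligands (9 lower, 5 higher) and 13 receptors (8 lower, 5 higher). Since these are bulk RNA samples, fewer cells of a type and less RNA per cell cannot be told apart for any of these genes.

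**Figure D1:**
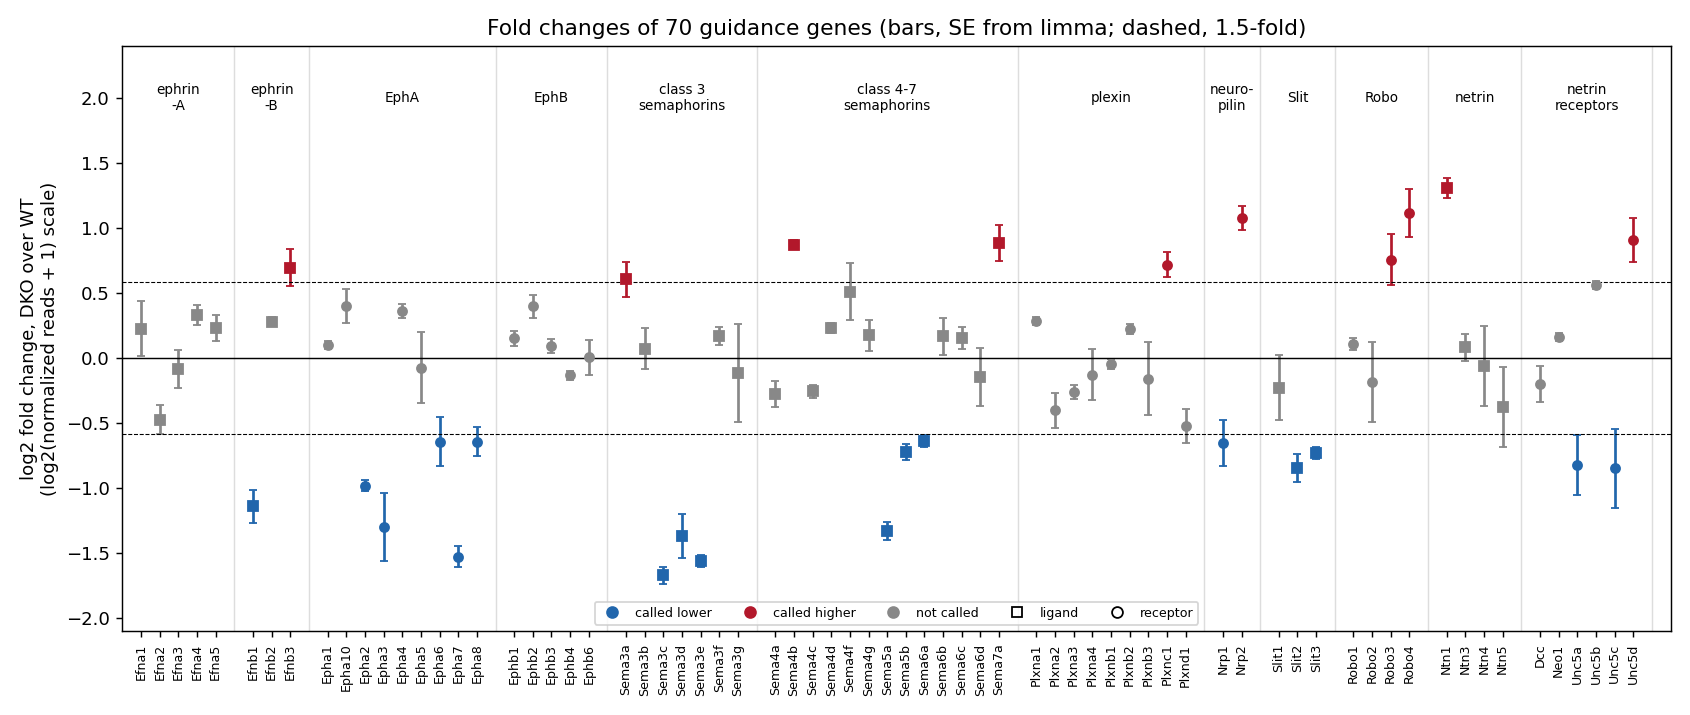
Log2 fold change of DKO over WT for each of the 70 guidance genes, grouped by family (squares, ligands; circles, receptors; bars, SE; dashed lines, 1.5-fold; 3 libraries per group). Genes called lower are blue and those called higher red: 5 of the 9 EphA receptors and 3 of the 7 class 3 semaphorins are blue, no EphB receptor or ephrin-A is coloured, and Ntn1 is the highest point at 1.31.

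Of the 9 EphA genes, 5 fell and none rose, and none of the 5 EphB genes was called. Whether the classes differ was not tested. Epha7, a receptor best known from the patterning of the forebrain, had 376, 348 and 349.9 normalized reads in WT and 116, 123 and 132 in DKO, where every value was under the lowest WT value by more than the range of either group (log2 fold change -1.53 ± 0.08 (SE), adjusted p = 2.31e-14). Epha2, a receptor of epithelia and of early embryos, had 2327, 2349 and 2455 in WT and 1148, 1271 and 1195 in DKO. Its DKO mean was 0.507 times the WT mean (log2 fold change -0.98 ± 0.04 (SE), adjusted p = 3.21e-17), and it was the fallen Eph receptor with the most reads. Epha3 had few reads, 30.6, 32.4 and 23.5 in WT and 9.69, 9.46 and 14.5 in DKO, and its error was wider (log2 fold change -1.30 ± 0.26 (SE), adjusted p = 1.56e-04). Epha8 fell from 135 ± 6.53 (SD, n = 3) to 86.2 ± 7.38 (log2 fold change -0.64 ± 0.11 (SE), adjusted p = 3.20e-05), and Epha6 from 49.1 ± 5.82 to 31.2 ± 4.85 (log2 fold change -0.64 ± 0.19 (SE), adjusted p = 0.00489). Both lay close to the fold threshold: Epha8 lost its call without DKO replicate 1 and Epha6 without DKO replicate 1 or WT replicate 3.

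The other 4 EphA genes were not called. Epha1 had 2145, 2193 and 2119 normalized reads in WT and 2382, 2287 and 2251 in DKO, which differed without overlap and by little (log2 fold change 0.10 ± 0.03 (SE), adjusted p = 0.0154). The gene body of Epha1 overlaps a coding gene on the annotation, and strand use in counting was not stated, so reads from the overlap cannot be assigned. Epha4 and Epha10 had log2 fold changes of 0.36 ± 0.05 and 0.40 ± 0.13, each with an adjusted p under 0.05 and a fold change under 1.5. Epha5, with a mean of 18.8 normalized reads in WT, gave -0.07 ± 0.27. Per kb of gene body, Epha1 was the most highly expressed EphA gene at 146 ± 2.54 normalized reads per kb in WT (SD, n = 3), and Epha2 came next at 84.5 ± 2.43. The level of Epha1 was 156 ± 4.61 in DKO and that of Epha2 42.8 ± 2.20. Accordingly the share of Epha2 in the summed EphA level per kb was 34.6% in WT and 20.3% in DKO, and that of Epha1 was 59.7% and 73.9%. The summed level of the class was 244 ± 2.25 per kb in WT and 211 ± 3.15 in DKO (0.866 times as much).

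The promoter of Epha7, the receptor that fell furthest, is shown as it stands in RefSeq for GRCm38.p6 (the mm10 assembly), from 250 bases before to 50 bases after the annotated start, chr4:28812895-28813194 on the plus strand. Capitals mark the Smad box, searched as CAGAC on both strands and so read as GTCTG where it lies on the other strand. A match is only a match of letters.
Epha7: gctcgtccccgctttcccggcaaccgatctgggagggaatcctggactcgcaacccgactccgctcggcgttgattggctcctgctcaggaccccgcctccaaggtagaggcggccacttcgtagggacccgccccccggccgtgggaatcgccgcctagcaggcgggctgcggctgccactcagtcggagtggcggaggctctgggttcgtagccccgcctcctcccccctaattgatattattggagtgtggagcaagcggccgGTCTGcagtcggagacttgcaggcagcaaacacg
The window holds 1 Smad box, at base 267, which lies after the RefSeq start. It lies before the GENCODE start of the counted transcript, which differs from the RefSeq start by 105 bases.

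The EphB receptors stayed within the 1.5-fold band. Ephb4, a receptor for ephrin-B2, was the highest of them per kb, at 96.9 ± 3.94 in WT and 88.3 ± 1.70 in DKO (SD, n = 3), and had a mean of 2359.8 ± 95.9 normalized reads in WT and 2149 ± 41.4 in DKO. Its log2 fold change was -0.13 ± 0.04 (adjusted p = 0.00219), so the groups differed by less than the threshold. Ephb3 came next at 32.4 ± 1.22 per kb in WT and 34.5 ± 1.60 in DKO, and its groups overlapped (log2 fold change 0.09 ± 0.05 (SE), adjusted p = 0.166). Ephb2 gave the largest value of the class, 0.40 ± 0.09, and Ephb6 the smallest in size, with groups that overlapped.

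None of the 5 ephrin-A ligands was called, and the 3 ephrin-B ligands went separate ways. Efnb1, an X-linked gene for a membrane-spanning ephrin, had 143, 127 and 127 normalized reads in WT and 68.9, 52.5 and 57.5 in DKO, with no overlap (log2 fold change -1.14 ± 0.13 (SE), adjusted p = 3.50e-08). Efnb3 had 54.8, 82.5 and 71.5 in WT and 114, 105 and 117 in DKO (log2 fold change 0.70 ± 0.14 (SE), adjusted p = 1.43e-04). The WT values of Efnb3 were spread widely, and the call was lost without WT replicate 1. Efnb2, the ligand of Ephb4, was by far the most highly expressed ephrin-B at 78.3 ± 3.88 per kb in WT and 94.9 ± 4.41 in DKO. It had 3614, 3393 and 3279.7 normalized reads in WT and 4240.2, 4298 and 3938 in DKO, all DKO values being higher, and a fold change under the threshold (log2 fold change 0.28 ± 0.04 (SE), adjusted p = 3.02e-07). Among the ephrin-A ligands Efna4 was highest per kb of gene body, at 57.8 ± 2.67 per kb in WT and 73.0 ± 7.37 in DKO (log2 fold change 0.33 ± 0.08 (SE), adjusted p = 7.62e-04). Efna2 was next at 13.9 ± 0.465 and 10.0 ± 1.23 (log2 fold change -0.47 ± 0.11 (SE), adjusted p = 7.72e-04), and its groups moved in the opposite direction to those of Efna4 without overlap. Efna1, Efna3 and Efna5 overlapped between the groups, with log2 fold changes of 0.23, -0.08 and 0.23. Per kb of exon the order of the ephrin-A ligands turned, and Efna5 was highest, at 323 ± 38.1 in WT and 380 ± 58.3 in DKO. Efna4 stood at 168 ± 7.73 and 212 ± 21.4 on that scale. This scale divides reads over the whole gene body by the length of exons alone. The counted transcript of Efna5 has only 0.643 kb of exon in a gene body of 274 kb. Its place at the top of that order may therefore come from these lengths, and does not show that it was the most highly expressed.

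**Figure D2:**
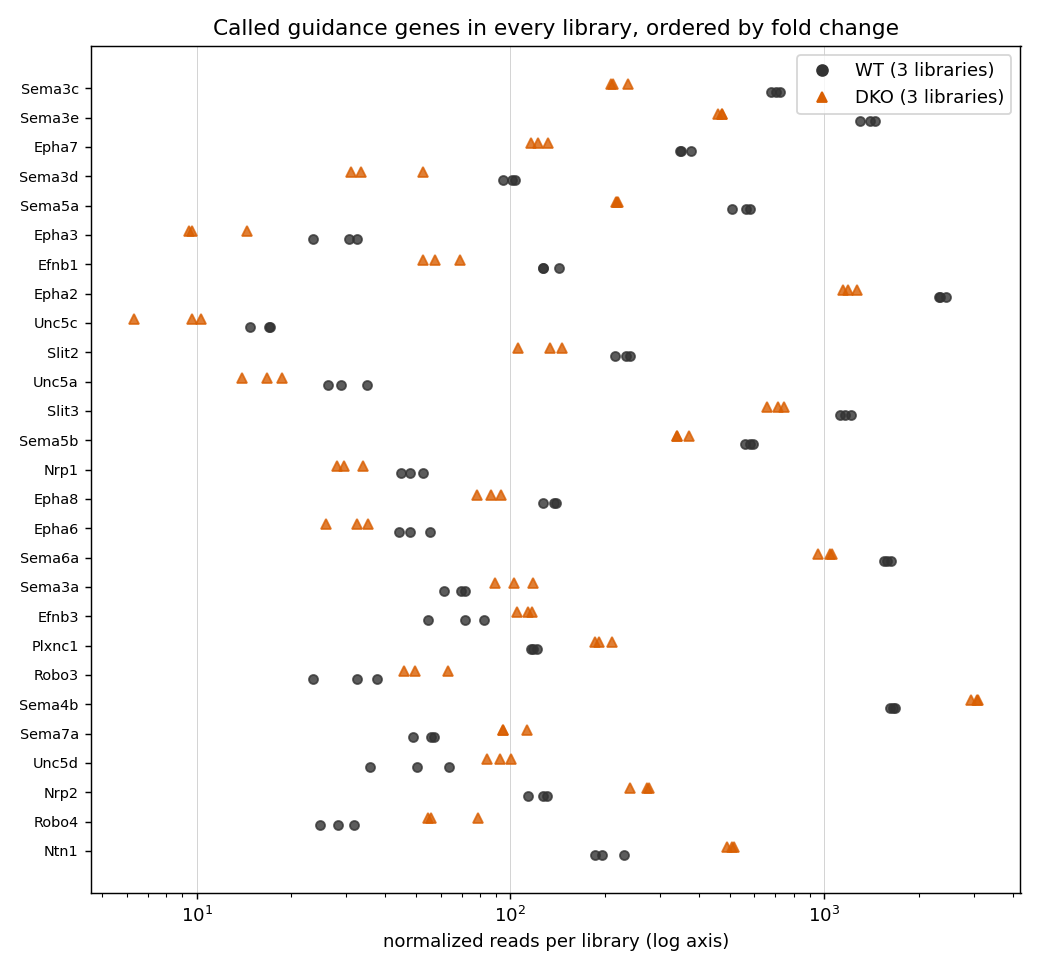
Normalized reads (log axis) of the 27 called guidance genes in each library, ordered by fold change, with WT as grey circles and DKO as orange triangles (3 libraries each). The 17 genes from Sema3c to Sema6a have every DKO value under every WT value and the 10 from Sema3a to Ntn1 have every DKO value above, and the values span from 6.30 for Unc5c in DKO replicate 2 to 3100.0 for Sema4b in the same library.

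The class 3 semaphorins included the 2 largest decreases of all 70 genes. Of the 7 genes, 3 fell and 1 rose. Sema3c, a secreted semaphorin with a role in the cardiac outflow tract, had 702, 723 and 678 normalized reads in WT and 212, 237 and 209.9 in DKO (log2 fold change -1.67 ± 0.07 (SE), adjusted p = 1.63e-17). The DKO mean was 0.314 times the WT mean. Sema3e, which differs from its relatives in binding Plxnd1 without a neuropilin, had 1404, 1449 and 1301 in WT and 474, 459 and 472 in DKO (log2 fold change -1.56 ± 0.05 (SE), adjusted p = 1.35e-19). Its 3 DKO values lay closer together than its WT values, and far under them. Sema3d was a low gene, with 101, 104 and 94.9 in WT and 33.4, 52.5 and 31.1 in DKO (log2 fold change -1.37 ± 0.17 (SE), adjusted p = 1.42e-07). Sema3a, the founding repellent of the class, went the other way, with 61.2, 69.4 and 71.5 in WT and 118, 103 and 89.2 in DKO (log2 fold change 0.61 ± 0.13 (SE), adjusted p = 4.45e-04). Its fold change of 1.54 lay just over the threshold, and the call was lost without WT replicate 1 or DKO replicate 1.

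Sema3b, Sema3f and Sema3g were not called. Sema3f had 409.9, 388 and 398 normalized reads in WT and 396, 460.2 and 496 in DKO, and the groups overlapped (log2 fold change 0.17 ± 0.07 (SE), adjusted p = 0.0445). Per kb it was the highest class 3 gene, at 13.8 ± 0.376 in WT and 15.6 ± 1.74 in DKO (SD, n = 3), and Sema3e followed in WT at 5.98 ± 0.329. In DKO, Sema3e stood at 2.02 ± 0.0365 per kb, under Sema3b at 4.82 ± 0.184. The share of Sema3e in the summed level of the class was 19.7% in WT and 8.07% in DKO, and that of Sema3f 45.3% and 61.6%. The summed level per kb was 30.4 ± 0.477 in WT and 25.2 ± 1.81 in DKO, or 0.828 times the WT sum. These values depended on the length: the DKO sum was 0.585 times the WT sum per kb of exon and 0.495 times in normalized reads not divided by length. Per kb of exon Sema3e was above Sema3f in WT, at 202 ± 11.1 against 117 ± 3.21, and under it in DKO, at 68.3 ± 1.23 against 133 ± 14.8.

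**Figure D3:**
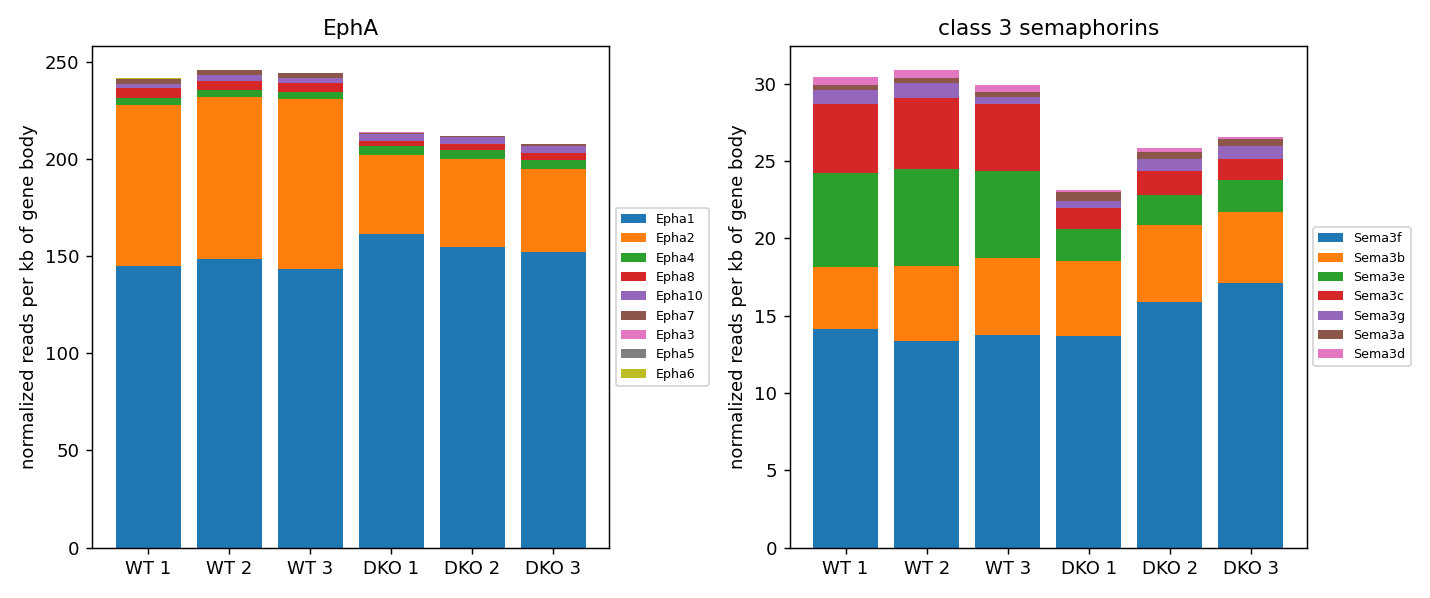
Normalized reads per kb of gene body in each library, stacked by gene, for the 9 EphA receptors (left) and the 7 class 3 semaphorins (right). The Epha2 band is 84.5 per kb in WT and 42.8 in DKO on average while Epha1 is 146 and 156, and the Sema3e and Sema3c bands are narrower in all 3 DKO libraries.

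Sema3d, Sema3a, Sema3e and Sema3c lie in this order on chromosome 5, all on the plus strand, and were looked at as neighbours after their values were seen. Measured between the counted transcripts, the gap is 808 kb from Sema3d to Sema3a and 424 kb from Sema3a to Sema3e. The whole RefSeq gene of Sema3a spans 479 kb against 204 kb for its counted transcript, so the gene reaches further than these gaps show. No other tested gene lies in either gap, so the only gene of the 4 that rose stood between 2 that fell. Between Sema3e and Sema3c lie 5 tested genes. Of these, Hgf, which codes for the ligand of the receptor Met, fell from a mean of 38.9 to 16.5 normalized reads (log2 fold change -1.17 ± 0.26 (SE), adjusted p = 4.34e-04). Speer8-ps1, a pseudogene of a multicopy family whose reads could be shared between copies, also passed the test (-0.68). Pclo, Speer4cos and Cacna2d1 were not called and had log2 fold changes of -0.14, -0.42 and -0.37.

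**Figure D4:**
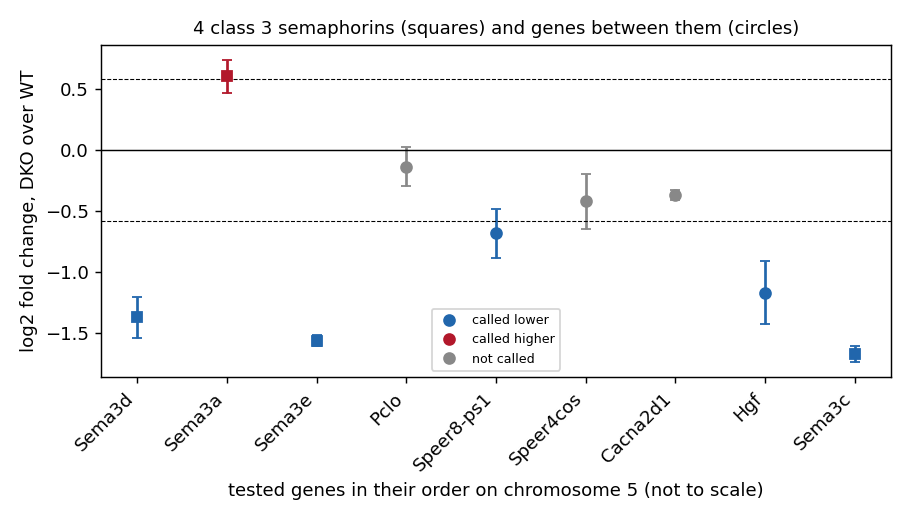
Log2 fold change of DKO over WT (bars, SE; dashed lines, 1.5-fold) for the tested genes from Sema3d to Sema3c in their order on chromosome 5, with distances not to scale. The semaphorins are squares: Sema3a lies at 0.61, between Sema3d at -1.37 and Sema3e at -1.56.

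The promoters of the 4 neighbours are shown because these genes share a region and a family and moved in opposite directions. Each window runs from 250 bases before to 50 bases after the RefSeq start on GRCm38.p6, on the plus strand, and capitals again mark the Smad box (CAGAC on either strand). The positions are chr5:12382916-12383215 for Sema3d, chr5:13396534-13396833 for Sema3a, chr5:14025026-14025325 for Sema3e and chr5:17574566-17574865 for Sema3c.
Sema3d: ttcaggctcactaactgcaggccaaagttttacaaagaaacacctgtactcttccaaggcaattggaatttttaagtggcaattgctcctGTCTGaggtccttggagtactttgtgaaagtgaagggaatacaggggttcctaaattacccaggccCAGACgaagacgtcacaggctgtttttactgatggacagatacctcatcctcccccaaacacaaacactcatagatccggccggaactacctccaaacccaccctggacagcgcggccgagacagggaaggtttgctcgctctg
Sema3a: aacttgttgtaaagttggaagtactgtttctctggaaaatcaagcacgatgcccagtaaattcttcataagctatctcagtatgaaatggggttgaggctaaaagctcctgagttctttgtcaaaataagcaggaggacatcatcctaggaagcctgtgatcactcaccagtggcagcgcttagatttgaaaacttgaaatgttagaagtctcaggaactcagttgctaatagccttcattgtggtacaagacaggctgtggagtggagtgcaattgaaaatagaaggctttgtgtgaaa
Sema3e: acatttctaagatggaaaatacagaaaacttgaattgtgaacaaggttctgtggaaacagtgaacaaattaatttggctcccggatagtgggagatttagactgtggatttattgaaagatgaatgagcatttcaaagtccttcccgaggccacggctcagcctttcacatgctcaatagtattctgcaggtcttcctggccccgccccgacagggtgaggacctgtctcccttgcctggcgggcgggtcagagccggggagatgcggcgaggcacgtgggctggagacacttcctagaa
Sema3c: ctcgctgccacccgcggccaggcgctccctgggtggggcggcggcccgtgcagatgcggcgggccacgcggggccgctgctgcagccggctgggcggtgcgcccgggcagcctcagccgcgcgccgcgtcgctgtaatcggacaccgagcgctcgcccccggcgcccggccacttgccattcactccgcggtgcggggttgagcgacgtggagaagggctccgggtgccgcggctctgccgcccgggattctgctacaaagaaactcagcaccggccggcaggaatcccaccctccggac
Sema3d holds 2 Smad boxes, at bases 91 and 157 of its window, and the windows of the other 3 hold none. The Sema3e window has 1 match to TGTNNATT, a motif of Foxh1, a partner of Smad2 and Smad3. The Sema3c window has 1 match to GGCGCC, a motif described for Smads in GC-rich sequence. GC content was 49.7% for Sema3d, 41.3% for Sema3a, 50.7% for Sema3e and 75.7% for Sema3c. The RefSeq and GENCODE starts differed by 535 bases for Sema3c and 219 for Sema3d and were the same for Sema3a and Sema3e. Starts were not measured in these cells.

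Promoter windows were found for 60 of the 70 genes, each at the listed start nearest to that of the counted transcript. That start lay 36990 bases away for Sema4d and 4014 for Epha10. Their windows, which each hold a CAGAC, may not be those of the counted transcripts. CAGAC occurred on either strand in 33 of the 60 (55.0%) and in 49.5% of the 32544 promoters of the RefSeq table. It was present in 9 of 16 lower genes and 2 of 7 higher genes with a window. The palindromic box GTCTAGAC, which contains CAGAC on neither strand, occurred in 0 of 60 windows and in 0.215% of all promoters. GGCGCC was present in 15 of 60 windows (25.0%) and in 11.9% of all promoters, among them 4 of the 16 lower and 1 of the 7 higher genes. TGTNNATT was found in 3 of 60 (5.00%) and in 12.1% of all promoters, and the 3 genes, Sema3e, Epha2 and Epha6, were all called lower. Matches in so short a window are a description of letters and say nothing about binding.

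In classes 4 to 7, 3 semaphorins fell and 2 rose out of 13. Both class 5 genes, which code for membrane semaphorins with thrombospondin repeats, were lower. Sema5a had 581, 564 and 508 normalized reads in WT and 218, 219.6 and 217 in DKO (log2 fold change -1.33 ± 0.07 (SE), adjusted p = 5.43e-15), with no DKO value near the lowest WT value. Sema5b had 594, 582 and 558 in WT and 339.6, 371 and 339 in DKO (log2 fold change -0.72 ± 0.06 (SE), adjusted p = 1.16e-10). Sema6a, a ligand for Plxna2 and Plxna4, fell from 1589.9 ± 41.6 (SD, n = 3) to 1021 ± 53.9 (log2 fold change -0.64 ± 0.04 (SE), adjusted p = 1.45e-12). Sema4b rose, with 1623, 1659 and 1688 in WT and 3060.0, 3100.0 and 2929 in DKO (log2 fold change 0.87 ± 0.03 (SE), adjusted p = 1.52e-17), and its fold change of 1.83 had the smallest error of all called members. Sema7a, the lipid-anchored semaphorin read by Plxnc1 and by integrins, had 55.9, 48.9 and 57.1 in WT and 94.7, 94.6 and 113 in DKO (log2 fold change 0.89 ± 0.14 (SE), adjusted p = 4.86e-06).

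The most highly expressed semaphorin per kb of gene body was Sema4c, a ligand of Plxnb2, at 127 ± 2.52 in WT and 107 ± 8.97 in DKO. Its values of 1209.9, 1241 and 1258 in WT and 939, 1066 and 1105 in DKO did not overlap, and the fold change was under the threshold (log2 fold change -0.26 ± 0.05 (SE), adjusted p = 8.38e-05). Sema4b was next, at 41.7 ± 0.822 per kb in WT and 76.3 ± 2.25 in DKO, so the distance between these 2 was smaller in DKO. Per kb of exon the order turned, with Sema4b at 419.6 ± 8.26 and Sema4c at 328 ± 6.49 in WT, and 767 ± 22.6 and 275 ± 23.1 in DKO. The other uncalled genes were Sema4a (-0.27), Sema4d (0.23), Sema4f (0.51), Sema4g (0.17), Sema6b (0.17), Sema6c (0.15) and Sema6d (-0.15), each given as a log2 fold change. Of these, Sema4d passed the adjusted p alone with groups apart, and Sema4f, with 30.1, 29.6 and 20.3 normalized reads in WT and 33.4, 31.5 and 51.3 in DKO, was called in 3 of the 6 fits that left out 1 library.

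Of the semaphorin receptors, 1 of 9 plexins and both neuropilins were called. Plxnc1, the receptor of Sema7a, had 121, 116 and 118 normalized reads in WT and 211, 186 and 191 in DKO, so this ligand and its receptor both rose (log2 fold change 0.72 ± 0.10 (SE), adjusted p = 5.15e-07). The neuropilins are the co-receptors through which most class 3 semaphorins, and also VEGF, are bound, and they moved in opposite directions. Nrp1 had 52.6, 47.8 and 44.8 in WT and 33.9, 29.4 and 28.0 in DKO (log2 fold change -0.65 ± 0.18 (SE), adjusted p = 0.00334). Nrp2 had 114, 131 and 127 in WT and 241, 272 and 276 in DKO (log2 fold change 1.08 ± 0.09 (SE), adjusted p = 1.96e-10), with no DKO value under any WT value. Nrp2 was the higher of the pair per kb in both groups, at 1.08 ± 0.0773 in WT and 2.29 ± 0.166 in DKO against 0.336 ± 0.0275 and 0.211 ± 0.0214 for Nrp1. The share of Nrp2 in their sum was 76.2% in WT and 91.5% in DKO.

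Of the plexins, 8 of 9 were not called. Plxnb1 was the highest per kb at 123 ± 3.69 in WT and 119 ± 6.14 in DKO, followed by Plxna1 at 97.9 ± 4.17 and 119 ± 1.28. In DKO these levels were within their spread of each other, whereas in WT Plxnb1 was the higher. Per kb of exon Plxna1 was the higher in both groups, at 502 ± 21.4 against 349 ± 10.5 in WT and 611 ± 6.55 against 339 ± 17.4 in DKO. Plxnb1 had the smallest change of any guidance gene with at least 1000 normalized reads, with 3053, 2920.0 and 3093 in WT and 2802, 2889 and 3095 in DKO (log2 fold change -0.05 ± 0.04 (SE), adjusted p = 0.286). Plxna1 had 4484, 4370.0 and 4747 in WT and 5521, 5455 and 5573 in DKO (log2 fold change 0.28 ± 0.03 (SE), adjusted p = 9.92e-09), with a gene body that overlaps a coding gene, and Plxnb2 had a log2 fold change of 0.22 ± 0.04. Plxna3, Plxna2 and Plxnd1, the receptor of Sema3e, had values of -0.26, -0.40 and -0.52. Plxnd1 came nearest to a call, with 126, 97.9 and 109 in WT and 88.3, 72.5 and 70.5 in DKO (adjusted p = 0.00155), and was called in 2 of the 6 fits that left out 1 library. Plxna4 and Plxnb3 were low and overlapped between the groups.

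In the Slit and Robo system, 2 of 3 ligands fell and 2 of 4 receptors rose. Slit3 was the most abundant Slit, with 1164, 1221 and 1124 normalized reads in WT and 744, 659.8 and 711 in DKO (log2 fold change -0.73 ± 0.05 (SE), adjusted p = 1.67e-12). Slit2 had 216, 234 and 241 in WT and 146, 106 and 134 in DKO (log2 fold change -0.85 ± 0.11 (SE), adjusted p = 1.71e-07). Slit1 was low and overlapped between the groups (-0.23 ± 0.25). Summed per kb, the 3 Slits stood at 2.94 ± 0.0171 in WT and 1.80 ± 0.144 in DKO, or 0.611 times the WT sum. Slit3 contributed 67.7% of this in WT and 66.9% in DKO, and Slit2 24.3% and 22.1%.

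Robo4, an endothelial member of the receptor family, had 24.7, 31.9 and 28.3 normalized reads in WT and 56.0, 54.6 and 78.8 in DKO (log2 fold change 1.12 ± 0.19 (SE), adjusted p = 1.30e-05). Robo3, best known from commissural neurons, had 37.6, 32.4 and 23.5 in WT and 49.5, 45.7 and 63.2 in DKO (log2 fold change 0.75 ± 0.20 (SE), adjusted p = 0.00208). Its 3 values in each group were few and spread out, and the call was lost without WT replicate 3. Robo4 and Robo3 are neighbours on chromosome 9 with 2.49 kb between them, the closest pair among these genes. Robo1, the main Slit receptor in reads, had 1033, 989.6 and 905 in WT and 1075, 1032 and 1040.3 in DKO, with overlapping groups (log2 fold change 0.11 ± 0.05 (SE), adjusted p = 0.0619), and Robo2 was low (-0.18 ± 0.30). Per kb of gene body, Robo1 (2.55 ± 0.170) and Robo4 (2.46 ± 0.311) did not differ beyond their spread in WT, whereas in DKO Robo4 was the higher, at 5.48 ± 1.18 against 2.74 ± 0.0594. Per kb of exon the order in DKO turned, with Robo1 at 139 ± 3.01 and Robo4 at 19.6 ± 4.21. In WT Robo1 stood at 129 ± 8.61 and Robo4 at 8.77 ± 1.11 on that scale. The long introns of Robo1 enter the length of its gene body. As introns appear to be counted, they can enter its reads too, so neither scale settles the order.

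Robo4 had the largest rise among the genes with a promoter window, and the window is shown for that reason (chr9:37401722-37402021 on GRCm38.p6, plus strand, with the Smad box in capitals).
Robo4: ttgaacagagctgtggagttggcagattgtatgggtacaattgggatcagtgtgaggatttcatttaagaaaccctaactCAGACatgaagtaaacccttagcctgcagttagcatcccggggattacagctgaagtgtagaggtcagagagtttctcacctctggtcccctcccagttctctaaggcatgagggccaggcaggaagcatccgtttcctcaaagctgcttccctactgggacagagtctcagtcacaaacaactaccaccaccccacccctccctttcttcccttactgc
It has 1 Smad box, at base 81. The RefSeq and GENCODE starts of Robo4 differed by 74 bases.

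Ntn1, the founding netrin and a secreted ligand of Dcc, neogenin and the Unc5 receptors, rose furthest of all the guidance genes. It had 186, 196 and 230.4 normalized reads in WT and 516, 491 and 507 in DKO (log2 fold change 1.31 ± 0.08 (SE), adjusted p = 8.16e-14), and the DKO mean was 2.47 times the WT mean. Ntn3 and Ntn5, the highest netrins per kb in WT at 22.3 ± 1.29 and 1.41 ± 0.379, both overlap a coding gene, so their levels may include its reads. Neither was called (0.08 and -0.38). Per kb of exon Ntn1 was the highest netrin in both groups, at 35.6 ± 4.06 in WT and 88.0 ± 2.16 in DKO against 25.2 ± 1.45 and 26.7 ± 0.783 for Ntn3. The reads appear to include introns, and the gene body of Ntn1 is 177 kb against 5.68 kb for Ntn3. The exon scale may therefore favour Ntn1, and neither scale settles the order. Ntn4 was close to the lower end of the range and overlapped between the groups (-0.06 ± 0.31).

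The netrin receptors were dominated by Unc5b, a dependence receptor found in vessels and in the nervous system. It had 3701, 3887 and 3951 normalized reads in WT and 5748, 5669 and 5594 in DKO, so every DKO value was well above the WT values. Its fold change of 1.47 was just under the threshold of 1.5, and it was not called in spite of its small error (log2 fold change 0.56 ± 0.03 (SE), adjusted p = 8.06e-15). Unc5d rose from 50.5, 63.7 and 35.7 in WT to 92.6, 84.1 and 101 in DKO (log2 fold change 0.91 ± 0.17 (SE), adjusted p = 5.65e-05). Unc5a had 34.9, 26.2 and 28.8 in WT and 14.0, 16.8 and 18.7 in DKO (log2 fold change -0.82 ± 0.23 (SE), adjusted p = 0.0042), with a gene body that overlaps a coding gene. Unc5c was the lowest of the called genes, with 17.2, 14.8 and 17.1 in WT and 9.69, 6.30 and 10.4 in DKO (log2 fold change -0.85 ± 0.30 (SE), adjusted p = 0.0209), and the call was lost when WT replicate 1, WT replicate 3 or DKO replicate 2 was left out. Among the rising genes, Sema3a lay just over the 1.5-fold threshold and Unc5b just under it.

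Neo1 was the second netrin receptor per kb, at 13.2 ± 0.0867 in WT and 14.8 ± 0.126 in DKO, and had 2109.7, 2102 and 2129 normalized reads in WT and 2375, 2367 and 2337 in DKO (log2 fold change 0.16 ± 0.03 (SE), adjusted p = 1.58e-04). Dcc, the classical attractive netrin receptor, was low for so long a gene, with 92.9, 93.3 and 73.1 in WT and 68.9, 70.4 and 86.0 in DKO and overlapping groups (log2 fold change -0.20 ± 0.14 (SE), adjusted p = 0.239). Unc5b alone made up 80.0% of the summed netrin receptor level per kb in WT and 84.3% in DKO. Their sum stood at 69.7 ± 1.84 in WT and 97.5 ± 1.18 in DKO, which is 1.40 times the WT sum. The corresponding ratio was 1.77 for the neuropilins, and it lay between 0.956 and 1.18 for EphB, ephrin-A, ephrin-B, plexins and semaphorins of classes 4 to 7. For the Robos it was 1.65 per kb of gene body, 1.17 per kb of exon and 1.12 in reads not divided by length. For the netrins, where Ntn3 made up most of the level per kb of gene body, it was 1.11, 1.69 and 1.84 in the same order.

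Of a list of 105 other genes of guidance signalling, comprising co-receptors, adaptors, cytoskeletal regulators and kinases, 103 were tested and 16 were called, 10 lower and 6 higher. This is 15.5% of the list, close to the 15.4% over all genes, and the median log2 fold change was -0.00880. Mst1r and Trim9 did not pass the filter on low counts. Trim67, a ubiquitin ligase that binds Dcc, had 219, 241 and 221 normalized reads in WT and 14.0, 12.6 and 10.4 in DKO (log2 fold change -4.11 ± 0.16 (SE), adjusted p = 1.08e-17). Nrcam, an adhesion molecule that works as a co-receptor with neuropilins, had 366, 386 and 370.2 in WT and 84.5, 113 and 106 in DKO (log2 fold change -1.89 ± 0.10 (SE), adjusted p = 6.66e-15). Pdzrn3, a PDZ and RING domain protein, fell as well (-1.62 ± 0.07), as did Pak3, a kinase downstream of Rac and Cdc42 (-1.02 ± 0.06), and Mical2, an enzyme that oxidizes actin (-0.96 ± 0.22). Among the 6 that rose, Kdr, a VEGF receptor, had 16.1, 9.11 and 7.47 in WT and 45.7, 35.7 and 54.4 in DKO (log2 fold change 2.01 ± 0.26 (SE), adjusted p = 4.27e-07). Srgap3, a GTPase activating protein of the Slit and Robo pathway, had 398, 401 and 413 in WT and 899.8, 926 and 882 in DKO (log2 fold change 1.16 ± 0.05 (SE), adjusted p = 2.43e-16). Enah, an actin regulator that acts with Robo and netrin receptors, Abl2, a tyrosine kinase, and Rgs3, which binds ephrin-B, gave 0.81 ± 0.02, 0.74 ± 0.03 and 0.61 ± 0.11.

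Markers of other cell types moved in the same comparison. Of 6 endothelium markers 3 rose (Pecam1, Tek and Kdr) and 1 fell (Tie1). Their summed level was 1236 to 1293 normalized reads in WT and 2741 to 3005 in DKO. Pecam1 held most of this sum, and without it the sum was 287 to 305 in WT and 521 to 576 in DKO. Robo4 and Nrp2 moved in the same direction, and Nrp1 in the other. Cdh5, a defining endothelial gene, had at most 2.15 normalized reads in any library. Of 8 fibroblast markers Dcn and Col1a2 fell and none rose, with a sum of 1673 to 1766 in WT and 566 to 628 in DKO. Col1a1, Col3a1, Thy1 and Twist1 were tested and not called, with log2 fold changes of -0.53, 0.36, 0.11 and -0.09. Dcn held most of this sum, and without it the sum was 379 to 385 in WT and 263 to 312 in DKO (0.763 times). Postn was at 0 in all but 1 library and Lum reached at most 5.69. Of 9 trophoblast markers 7 rose, and the sum was 200.3 to 218 in WT and 705 to 834 in DKO, while Elf5 was at or near 0. Of 10 neural markers 2 fell (Sox1 and Pax3) and 1 rose (Pax6), with Six3 at or near 0. The neural sum was 1847 to 1917 in WT and 1567 to 1581 in DKO. Without Nes, which had the most reads and was not called, it was 1012 to 1028 in WT and 961 to 987 in DKO (0.952 times). Of 7 primitive streak and mesoderm markers 6 were tested, of which 4 fell (T, Mixl1, Tbx6 and Fgf8, the last with a log2 fold change of -4.87) and Eomes rose, with Mesp1 at or near 0. Their sum was 727 to 737 in WT and 616 to 705 in DKO, and without Eomes, the gene with the most reads, 417 to 440.0 in WT and 156 to 212 in DKO. Of 10 extra-embryonic endoderm markers 3 rose (Gata6, Cubn and Pdgfra) and none was called lower, with a sum of 402 to 431 in WT and 490.1 to 562 in DKO and Sox7 near 0. The median log2 fold change of this list was -0.11, and Dab2, the gene with the most reads, was at -0.37 and not called. Without Dab2 the sum was 192 to 228 in WT and 325 to 408 in DKO. The part of these lists in the guidance results was not tested.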

How the data were processed

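Total RNA of 6 libraries was depleted of ribosomal RNA and sequenced paired-end. The authors filtered out ribosomal reads (Bowtie2), mapped the others to mm10 (STAR), discarded duplicates (SAMtools), counted refGene gene bodies and normalized with DESeq2. Versions and strand use in counting were not stated. The deposited signal is a read count divided by 1 size factor per library, 1.76 to 1.93. Multiplying back gave whole reads (within 0.01) for 100% of values. Gene bodies appear to include introns, since entries with the same span but different exons shared all values in 542 of 567 pairs. A second deposited table holds the authors' own fold changes and p-values and was not used.

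The entry with the highest total was kept per symbol. Entries without a symbol, 0.500 to 0.532% of the reads, were left out. Values were tested as log2(value + 1), so that fold changes of low genes are understated, with limma 3.58.1 (variance trend) in R 4.3.3 after the filterByExpr filter of edgeR 4.0.16, with Benjamini-Hochberg adjustment over 17038 genes, and called at an adjusted p under 0.05 and a fold change over 1.5 as in the study's methods. Fits with edgeR, DESeq2 1.42.0 and limma-voom on the whole reads, other scalings, filters and pseudocounts, a replicate block and fits without each library were alternatives. Replicate pairs differed by 3.30 to 5.35 times the sampling variance, so no library was counted as a duplicate. Levels per kb are normalized reads over the span of the counted transcript in GENCODE M21. Levels per kb of exon divide the same gene-body reads by the exon length. They are not exon levels and can rank genes with long introns too high. 34 of the 70 genes overlap another annotated gene and 6 a coding gene. Of the 70, 16 had a mean under 100 reads in both groups. Every called gene, the 2 highest per kb in WT of each family, the least changed with at least 1000 normalized reads and the 5 partners with the largest changes each way were to be named. Promoters come from RefSeq. The members and lists were chosen with earlier results of these data known.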

Additional observations from a re-analysis of the deposited data

How the results depend on the processing

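The 27 calls were found again in full with edgeR, limma-voom, TMM in limma, library totals, no filter, a pseudocount of 0.1 and entries averaged or tested singly, and 26 of them with DESeq2, where Unc5c was lost. A pseudocount of 10 left 23, losing Epha6, Nrp1, Sema3a and Unc5c, and 5 in place of 8 lower receptors. A mean of at least 100 reads left 20 of the 27 by testing fewer genes, with receptors down from 13 to 6 (3 lower, 3 higher). The fold threshold mattered most. Without it, members rose from 27 to 47, higher members from 10 to 23, higher ligands from 5 to 9, receptors from 13 to 26, higher receptors from 5 to 14, and partners from 16 to 62 (32 lower, 30 higher). When the test itself was against 1.5-fold, 10 members (7 lower, 3 higher), 7 ligands (5 lower, 2 higher), 3 receptors (2 lower, 1 higher) and 9 partners (5 lower) passed. The counts over all genes moved with the same settings. Of 17038 genes, 9098 were called without the fold threshold and 1115 in the test against 1.5-fold, in place of 2623. With a mean of at least 100 reads it was 1546 of 13071.

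Fits without 1 library called 24 to 28 members (15 to 18 lower, 9 to 11 higher), 13 to 15 ligands (9 lower in each, 4 to 6 higher), 10 to 14 receptors (6 to 9 lower, 4 to 5 higher) and 14 to 17 partners (10 to 11 lower, 4 to 6 higher). Of the 27 members, 21 were called in all 6 such fits. Same-numbered libraries did not deviate together (correlations of -0.00787, -0.0252 and 0.00475 over 13071 genes). These values cannot tell whether same-numbered differentiations were run together. With a replicate block 27 members and 16 partners were called, and the block changed none of these counts. No direction reversed.

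Shares depended on the length used. Epha2 was 41.4% of EphA in WT and 26.3% in DKO with no division by length, and 41.3% and 25.7% per kb of exon, a setting chosen after seeing the data. Sema3e was 51.0% and 34.9% with no division, and 40.6% and 23.5% per kb of exon. Without 1 library, the shares of Epha2 were 34.1 to 35.0% in WT and 19.8 to 20.9% in DKO, and those of Sema3e 19.4 to 20.1% and 7.67 to 8.27%. All share settings kept the lower share in DKO. Ratios of family sums moved by over 1.5 times with the length for netrins and class 3 semaphorins, whose values stand in the report. For no family did the ratio cross 1. The few reads of genes such as Unc5c, Epha3 and Robo3 limit the precision of their fold changes.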
